A study of Mus musculus with 10 samples.

Results

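The genes of the positive transcription elongation factor b (P-TEFb) and of the super elongation complex were followed in MAF9 leukemia cells. They were picked by symbol as 10 of the 24015 genes in the deposited count table, namely Cdk9, Ccnt1, Ccnt2, Hexim1, Aff1, Aff4, Mllt1, Mllt3, Ell and Ell2. All 10 were found, all 10 passed the filter on low counts that kept 12971 genes, and their lowest count in any library was 460 reads, on Mllt3.

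P-TEFb is the kinase CDK9 with a cyclin T subunit. It releases RNA polymerase II that has paused just downstream of a promoter, and it is held inactive when HEXIM1 binds it on the 7SK RNA. The super elongation complex joins P-TEFb to a scaffold (AFF1 or AFF4), a YEATS-domain reader of acylated histones (ENL, the product of Mllt1, or AF9, the product of Mllt3) and an ELL elongation factor. Several of these genes, Mllt3 among them, are fusion partners of MLL1 in acute leukemia, and BET proteins are another route by which P-TEFb reaches chromatin.

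RNA sequencing compared 5 conditions of MAF9 cells, bone marrow cells from C57BL/6 mice that had been transduced with MLL-AF9, the fusion of the N terminus of MLL1 to the C terminus of AF9. All conditions carried the fusion and were grown in interleukin-3 at 10 ng/ml, in medium with 15% serum. Cells were exposed for 4 days to DMSO as the mock treatment, to MM401 (MM-401, which blocks the binding of MLL1 to WDR5), to EPZ (a DOT1L inhibitor), to MI (a MENIN inhibitor) or to iBET (a BET bromodomain inhibitor), each at its own growth-inhibitory dose. Each condition had 2 libraries, labelled biological duplicates, and the labels do not say whether these were separate transductions, so the p-values measure the spread between these libraries. The question was how these elongation genes stood when each of the 4 targets was blocked.

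The 10 libraries held 20394762 to 29473127 counted reads, so that 1 read was worth 0.0339 to 0.049 CPM, the reads on a gene relative to all counted reads of its library. Levels below are CPM scaled by the trimmed mean of M-values (TMM), and differences are log2 fold changes from an edgeR fit of all 10 libraries, with p-values adjusted over all genes tested. DMSO replicate 2 stood apart. It had 3630 reads on Y-linked genes against 0 to 2 in each of the other 9 libraries, its Xist level was 4.65 CPM against 1026 to 2817 CPM, and its log2 levels correlated with those of DMSO replicate 1 at r = 0.952 across genes, against 0.986 to 0.994 for the other pairs. The DMSO libraries were past 2-fold apart for 21.2% of all genes. By its Y-linked reads and Xist, DMSO replicate 2 had the pattern of male cells, and the other 9 libraries had that of female cells. So not all 10 came from 1 animal, although the labels give the same source for all. Every difference from DMSO thus also sets cells of both sexes against female cells. Whether this library came from another transduction, or carries another sample's label, was not tested. Results against DMSO are therefore also given without each DMSO library where that matters. A fit of that kind keeps 1 DMSO library, and the distance between the DMSO libraries no longer enters the shared spread. A pass seen only in such a fit, in any comparison, is therefore no support for a difference. Summed markers of maturing myeloid cells were above DMSO with MM401, and further above it with EPZ and MI. The paper calls myeloblast differentiation obvious with MM-401 but not with its other inhibitors, from data that it does not show. How that observation relates to these RNA sums was not tested. The 8 neutrophil genes summed to 746 to 3629 in DMSO, 4593 to 5992 in MM401, 49081 to 67221 in EPZ, 43856 to 44445 in MI and 503 to 1167 in iBET (CPM), the 8 macrophage genes to 78.6 to 98.8 in DMSO, 123 to 140.0 in MM401, 431 to 554 in EPZ, 432 to 847 in MI and 78.9 to 114 in iBET, and the 9 progenitor genes to 10377 to 14167 in DMSO, 11316 to 11727 in MM401, 3358 to 3616 in EPZ, 2389.7 to 3092 in MI and 6550.5 to 7341 in iBET. All 9 progenitor and all 8 neutrophil genes had reads in every library, as did 6 of the 8 macrophage genes, whereas the summed mast cell, red cell, platelet, B and T cell markers stayed at or below 22.2 CPM in every library, with Cd3e, Cd8a, Ms4a1, Hba-a1 and Fcer1a at 0 throughout. What part these cells play in the values below was not tested, and in such bulk RNA fewer cells of a type and less RNA per cell cannot be told apart.

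The 250 bases before the start site are shown for 3 genes on which the results turn, Hexim1, the member with the largest difference between iBET and DMSO, and Mllt1 and Aff4, which moved in opposite directions with EPZ and MI. They are RefSeq sequences of GRCm38.p6, 5′ to 3′ on the strand of the gene, while the reads were counted on mm9. Capitals mark letters that match, on either strand, the CCAAT box (CCAAT), an ETS site (CCGGAAGT), an NRF1 site (GCATGCGC), an E-box (CACGTG), a cAMP response element (TGACGTCA) or a TATA box (TATAAA or the variant TATATAA). None of these matches overlapped another in the 3 sequences.
Hexim1, chr11:103116075-103116324, + strand: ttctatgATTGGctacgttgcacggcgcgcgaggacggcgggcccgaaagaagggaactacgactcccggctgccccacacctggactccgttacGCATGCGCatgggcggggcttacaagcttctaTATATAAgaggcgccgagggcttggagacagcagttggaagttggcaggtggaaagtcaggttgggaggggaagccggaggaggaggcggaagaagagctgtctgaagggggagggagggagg
Mllt1, chr17:56935389-56935638, - strand: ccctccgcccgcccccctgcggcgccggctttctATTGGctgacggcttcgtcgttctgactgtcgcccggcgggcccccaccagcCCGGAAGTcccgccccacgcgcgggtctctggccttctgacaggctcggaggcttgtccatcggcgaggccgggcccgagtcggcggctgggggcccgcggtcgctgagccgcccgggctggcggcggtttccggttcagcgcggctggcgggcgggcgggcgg
Aff4, chr11:53350517-53350766, + strand: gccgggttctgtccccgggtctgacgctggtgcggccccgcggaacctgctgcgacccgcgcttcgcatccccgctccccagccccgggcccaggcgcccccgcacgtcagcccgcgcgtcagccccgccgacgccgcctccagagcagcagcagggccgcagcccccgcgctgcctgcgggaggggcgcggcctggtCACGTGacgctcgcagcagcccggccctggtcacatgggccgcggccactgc

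These letters were then looked for in all 32851 RefSeq promoters, each from 250 bases before to 50 after a start. The Hexim1 sequence held the TATA variant, which 3.24% of promoters hold, and the NRF1 letters, which 2.71% hold. Hexim1 was the only member with either. Its TATA letters lay at -123 to -117 from this start site, and whether they act as a TATA box was not tested. The ETS letters, found in 3.89% of promoters, were in those of Mllt1, Cdk9 and Ccnt1, the E-box letters (7.15%) only in that of Aff4, and the cAMP response element (1.79%) only in that of Ell2. CCAAT letters, which 37.4% of promoters hold, were in those of 6 members. With EPZ the log2 fold change of the 3 members with the ETS letters was 0.41 for Cdk9, -0.18 for Ccnt1, which was not called, and -0.39 for Mllt1. Whether any of these letters bear on the values was not tested.

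Per kilobase of exon, the catalytic subunit was the most abundant member in 9 of the 10 libraries, all but iBET replicate 1, where Hexim1 was level with it. On the scale of CPM per kilobase (RPKM, TMM-scaled, exon lengths of GENCODE M21 basic transcripts), the mean level over the 10 libraries was 60.7 ± 8.03 (SD, n = 10) for Cdk9. Hexim1 followed at 36.3 ± 13.4 and Aff1 at 32.2 ± 7.16 RPKM, which differed by less than their spread. Ell (19.2 RPKM), Mllt1 (17.5), Aff4 (14.1), Ell2 (13.3) and Ccnt2 (12.4) formed a middle group whose neighbors did not differ beyond their spread. Ccnt1 at 5.40 ± 0.582 and Mllt3 at 4.08 ± 0.522 RPKM were lowest, with Ccnt1 above Mllt3 in every library. With the exons of all annotated transcripts, Hexim1 (36.3 RPKM) and Aff1 (28.9) came before Cdk9 (23.6), so the top of this order depends on the exons counted, whereas Mllt3 and Ccnt1 stayed last. The SDs run over all conditions and hold the inhibitor effects too.

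**Figure D1:**
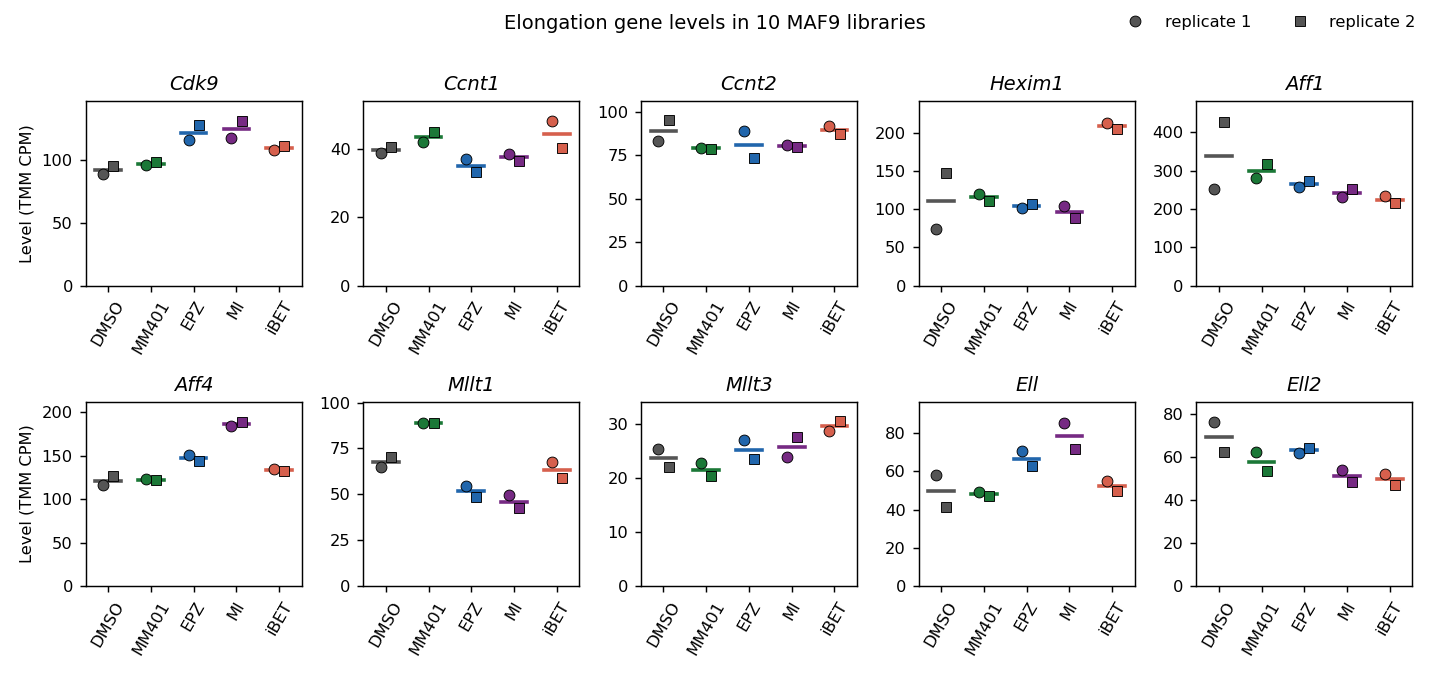
Level of each of the 10 elongation genes in each library, as TMM-scaled CPM on axes that start at 0. Circles are replicate 1, squares replicate 2 and lines the mean of the 2 libraries. Both iBET libraries lie above the other 8 for Hexim1 and Mllt3, both MM401 libraries for Mllt1, and both MI libraries for Aff4 and Ell.

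Against DMSO, the 10 genes were called about as often as genes in general, and the calls went in both directions. With MI, 5 of the 10 genes passed an adjusted p of 0.05, Aff4, Ell and Cdk9 upward and Mllt1 and Ell2 downward, where 41.4% of all genes tested passed. With EPZ, 3 passed, Cdk9 and Aff4 upward and Mllt1 downward, against 38.1% of all genes. With iBET no member passed, against 13.9% of all genes, and at an unadjusted p below 0.05 there were 4, Hexim1, Ell2, Aff1 and Cdk9 (32.2% of all genes). With MM401 neither a member nor any other gene passed in edgeR, and at an unadjusted p below 0.05 Mllt1 was the 1 member, against 11.2% of all genes. DESeq2 called 298 genes with MM401 (2.34%), no member among them. The median log2 fold change of the 10 genes was -0.01 with MM401, -0.11 with EPZ, -0.12 with MI and 0.11 with iBET, beside -0.01, -0.06, -0.05 and -0.04 over all genes tested. None of the members passed 2-fold in mean CPM in any of these comparisons, a mark that 6.44%, 26.8%, 27.5% and 14.9% of genes passed with MM401, EPZ, MI and iBET. Both libraries of a condition lay on 1 side of both DMSO libraries for 5 of the 10 members with MM401, 5 with EPZ, 8 with MI and 6 with iBET, beside 37.3%, 64.7%, 67.9% and 54.6% of all genes. The counts moved with single libraries, as did the share of all genes called. With EPZ there were 5 members without DMSO replicate 1 (51% of all genes), 3 without DMSO replicate 2 (35.5%), none without EPZ replicate 2 (19.7%) and 1 without each other library (25.5% to 32.2%). With MI there were 6 without DMSO replicate 1 (53.9%) or replicate 2 (37.6%), 3 without MI replicate 1 (26.2%), 2 without MI replicate 2 (20.7%) and 4 otherwise (32.9% to 37.5%). With iBET there were 2 without DMSO replicate 1 (27.9%) or replicate 2 (21.6%), and with MM401 1, Aff1, without DMSO replicate 1 (10.2%). The 4 comparisons share the DMSO libraries, so their values are not independent. Scaling by library totals in place of TMM lowered the median of all genes by 0.17 with EPZ and 0.15 with MI on the log2 scale, and the direction of every called member stayed as given.

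**Figure D2:**
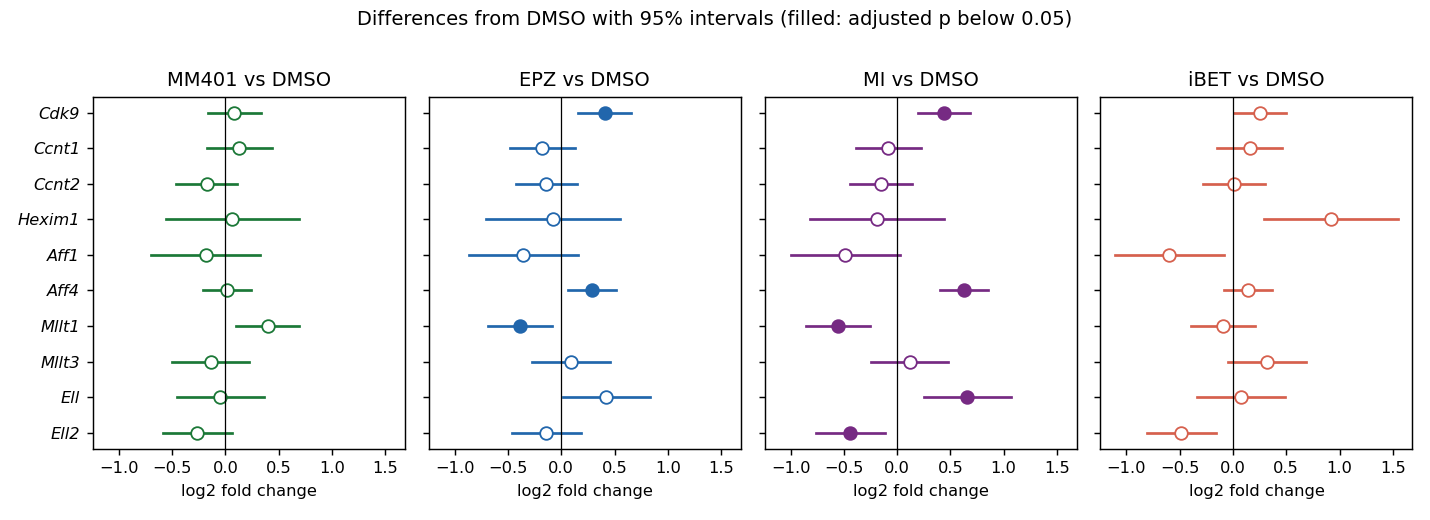
Log2 fold change of each elongation gene against DMSO for the 4 inhibitors, with 95% intervals from the edgeR fit. Filled points have an adjusted p below 0.05, 3 with EPZ, 5 with MI and none with MM401 or iBET, and the widest intervals belong to Hexim1 and Aff1.

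Among the P-TEFb subunits, the kinase gene rose with EPZ and MI, and the cyclin genes did not pass the test under TMM scaling. Cdk9, the kinase, stood at 88.4 and 94.8 CPM in DMSO, 96.1 and 98.2 in MM401, 116 and 127 in EPZ, 117 and 131 in MI, and 108 and 111 in iBET. Both DMSO libraries were below the other 8, as was the case for 6.19% of all genes, and the EPZ and MI libraries were the 4 highest. Cdk9 rose with EPZ (log2 fold change 0.41, SE 0.11, adjusted p = 0.0198) and with MI (log2 fold change 0.44, SE 0.11, adjusted p = 0.0135). The call with EPZ was lost without EPZ replicate 2 (0.34, adjusted p = 0.10) and with library totals (adjusted p = 0.0649), and that with MI without MI replicate 2 (0.36, adjusted p = 0.0934). With iBET it had a log2 fold change of 0.25, adjusted p = 0.147, and with MM401 of 0.08, adjusted p = 0.822, each relative to DMSO. Cdk9 was also higher with EPZ and with MI than with MM401 (0.32, adjusted p = 0.0495, and 0.36, adjusted p = 0.0342), where 33.3% and 35.7% of all genes passed, and these calls were lost in 8 and 6 of the 10 omissions of a library (adjusted p 0.0650 to 0.210 and 0.0588 to 0.183). Library totals or no filter ended both as well.

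Ccnt1, which encodes cyclin T1, stood at 38.7 and 40.6 CPM in DMSO, 42.1 and 44.8 in MM401, 36.9 and 33.2 in EPZ, 38.4 and 36.6 in MI, and 48.2 and 40.2 in iBET. The EPZ and MI libraries were the 4 lowest, and EPZ replicate 2 was the lowest of all. No comparison passed with TMM. Its log2 fold changes against DMSO ran from -0.18 with EPZ (95% interval -0.48 to 0.13) to 0.16 with iBET (95% interval -0.15 to 0.46). With library totals Ccnt1 passed between EPZ and MM401 (-0.45, adjusted p = 0.0398) and between iBET and EPZ (0.47, adjusted p = 0.0298), a scaling that moves the median of all genes in these comparisons by -0.15 and 0.14. An annotated gene on the opposite strand, 9330020H09Rik, overlaps Ccnt1 exons, but was counted at only 1.84 to 4.01 CPM. Whether counting used the strand is not given in the sources used here.

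Ccnt2, for cyclin T2, was the steadiest member, with 1.30-fold between its highest and lowest library, at 83 and 95.2 CPM in DMSO, 79.2 and 78.6 in MM401, 88.6 and 73.2 in EPZ, 80.8 and 79.6 in MI, and 91.9 and 87.3 in iBET. Both MM401 and both MI libraries were just under both DMSO libraries, whereas EPZ and iBET overlapped with DMSO. Its log2 fold change with iBET was 0.01 (95% interval -0.28 to 0.30), and its smallest adjusted p against DMSO was 0.358.

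Hexim1, the P-TEFb inhibitor and a known marker of the response to BET inhibition, was highest with iBET. Its levels were 73.6 and 147 CPM in DMSO, 119.8 and 111 in MM401, 101 and 107 in EPZ, 104 and 88.7 in MI, and 212 and 204 in iBET. Both iBET libraries stood above all other 8, as for 11.6% of all genes, while the MM401, EPZ and MI libraries all lay between the DMSO libraries, which were 1.99-fold apart. The mean with iBET was 208 CPM against 110.2 CPM in DMSO (log2 fold change 0.92, SE 0.27, adjusted p = 0.0618, 95% interval 0.29 to 1.55), which missed the threshold. It passed with the replicate number as a block (0.94, adjusted p = 0.0445, with 23.8% of all genes called) and with DESeq2 (adjusted p = 0.0173, 20.6% of all genes).

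The size of this difference rested on the DMSO libraries. Set against the DMSO library of the same number, Hexim1 was 2.88-fold higher in iBET replicate 1 and 1.39-fold higher in iBET replicate 2. Without DMSO replicate 1 the log2 fold change was 0.51, and without DMSO replicate 2 it was 1.5. Either omission takes the distance between the DMSO libraries out of the spread, so these fits cannot show whether the difference passes. Without iBET replicate 1 the log2 fold change was 0.90, and without iBET replicate 2 it was 0.95. For the other inhibitors even the sign turned with the DMSO library kept. Without DMSO replicate 1 the log2 fold change of Hexim1 was -0.34 with MM401, -0.49 with EPZ and -0.60 with MI. Without DMSO replicate 2 these were 0.63, 0.52 and 0.43.

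Comparisons among inhibitors do not use DMSO for the difference itself. Hexim1 was higher with iBET than with EPZ (log2 fold change 1.00, SE 0.27, adjusted p = 0.0231) and than with MI (log2 fold change 1.11, SE 0.27, adjusted p = 0.0158), where 37.6% and 38.8% of all genes passed. Leaving out either library of EPZ or of iBET lost the first call (adjusted p 0.0856 to 0.107), and either library of MI or of iBET the second (0.0560 to 0.0937), each of which leaves 1 library on a side. Against MM401 the difference of 0.85 did not pass (adjusted p = 0.0854), and it passed without DMSO replicate 1 (0.85, adjusted p = 0.00219) or replicate 2 (0.87, adjusted p = 0.00210). No difference in Hexim1 among MM401, EPZ and MI passed, the widest difference being -0.26 between MI and MM401 (95% interval -0.89 to 0.37).

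The scaffold genes parted ways. Aff1, which encodes the AF4 scaffold, had 252 and 426 CPM in DMSO, 280.0 and 317 in MM401, 257 and 272 in EPZ, 232 and 252 in MI, and 233 and 215 in iBET. DMSO replicate 2 was the highest library, 1.69-fold above DMSO replicate 1, and both MI and both iBET libraries were below both DMSO libraries. No comparison passed (-0.49, adjusted p = 0.113 with MI and -0.60, adjusted p = 0.108 with iBET), though with library totals the fall with MI did (adjusted p = 0.0350). Without DMSO replicate 1 Aff1 was lower with all 4 inhibitors, by 0.51 with MM401, 0.69 with EPZ, 0.81 with MI and 0.92 with iBET on the log2 scale. Without DMSO replicate 2 the values with MM401 and EPZ had the opposite sign, at 0.23 and 0.09.

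Aff4, the scaffold first purified with the super elongation complex, had 116 and 126 CPM in DMSO, 124 and 122 in MM401, 151 and 144 in EPZ, 184 and 189 in MI, and 135 and 132 in iBET. Both MI libraries were above the other 8 (7.38% of all genes), both EPZ libraries came next, and DMSO, MM401 and iBET lay close together. Aff4 rose with MI (log2 fold change 0.62, SE 0.10, adjusted p = 0.00242), a call that held with every library left out in turn and in all other settings tried. With EPZ it rose by a smaller step (log2 fold change 0.29, SE 0.10, adjusted p = 0.0498) that was just inside the threshold. That call was lost in 9 of the 10 omissions of a library, all but that of DMSO replicate 2, with adjusted p from 0.0765 to 0.155, and with library totals (adjusted p = 0.355) or no filter (adjusted p = 0.105). Aff4 was also higher with MI than with MM401 (log2 fold change 0.61, SE 0.10, adjusted p = 0.00359) and lower with iBET than with MI (log2 fold change -0.48, SE 0.10, adjusted p = 0.00701). The latter call was lost without iBET replicate 2 (-0.47, adjusted p = 0.0607). With EPZ against MM401 it passed only with the replicate block (0.27, adjusted p = 0.0479, 43.4% of all genes), with DESeq2 and without either DMSO library, and in edgeR without the block it was at 0.27, adjusted p = 0.0660. EPZ and MI themselves did not pass (log2 fold change -0.34, SE 0.10, adjusted p = 0.438, 95% interval -0.56 to -0.11), in a comparison where 0.0154% of all genes passed. It was the 1 member with an unadjusted p below 0.05 there, against 7.22% of all genes.

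Of the YEATS reader genes, Mllt1 responded and Mllt3 did not pass. Mllt1, which encodes ENL, had 65.0 and 70.1 CPM in DMSO, 88.8 and 88.9 in MM401, 54.8 and 48.6 in EPZ, 49.7 and 42.4 in MI, and 67.7 and 58.9 in iBET. The MM401 libraries were above the other 8 (3.34% of all genes) and the EPZ and MI libraries below all others, so that MM401 stood on the opposite side of DMSO from EPZ and MI. Mllt1 fell with MI (log2 fold change -0.55, SE 0.13, adjusted p = 0.0119) and with EPZ (log2 fold change -0.39, SE 0.13, adjusted p = 0.0488), while with MM401 it had log2 fold change 0.40, SE 0.13, adjusted p = 0.338. The call with MI was lost without MI replicate 2 (-0.44, adjusted p = 0.0919), and that with EPZ in all omissions but that of DMSO replicate 1 (adjusted p 0.0582 to 0.217), with DESeq2 size factors (adjusted p = 0.0773), with DESeq2 (adjusted p = 0.0742) and with no filter (adjusted p = 0.0747).

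Set directly against MM401, Mllt1 was lower with MI (log2 fold change -0.95, SE 0.13, adjusted p = 0.00223) and with EPZ (log2 fold change -0.78, SE 0.13, adjusted p = 0.00431), and both calls held in every omission of a library and every other setting. It was lower with iBET than with MM401 too (log2 fold change -0.49, SE 0.13, adjusted p = 0.0493, 11.4% of all genes called), a call lost in 8 omissions, all but those of the DMSO libraries (adjusted p 0.0664 to 0.273), and with library totals or no filter (adjusted p = 0.0674 and adjusted p = 0.0712). It was higher with iBET than with MI (log2 fold change 0.46, SE 0.13, adjusted p = 0.0260), which was lost without either MM401 library, MI replicate 2 or either iBET library (adjusted p 0.0532 to 0.152). Mllt1 was thus the 1 member that passed in all 3 comparisons with MM401 as the reference.

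Mllt3, which encodes AF9, had 25.5 and 22.0 CPM in DMSO, 22.8 and 20.4 in MM401, 27.0 and 23.6 in EPZ, 23.9 and 27.7 in MI, and 28.7 and 30.5 in iBET. Both iBET libraries were above the other 8, while the DMSO, EPZ and MI libraries overlapped. With iBET it had log2 fold change 0.32, SE 0.16, adjusted p = 0.205, and against MM401 the iBET value was 0.46, adjusted p = 0.104. With either DMSO library left out the latter value was 0.46 to 0.47. Reads on Mllt3 may come from the endogenous gene or from the AF9 part of the introduced fusion, and the counts do not separate them. Whether the fusion is of mouse or human sequence is not given in the sources used here. Kmt2a, which encodes MLL1 and gives the other part of the fusion, was at 227 to 356 CPM, with no call against DMSO.

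The ELL genes moved in opposite directions with MI. Ell, an elongation factor first found as a fusion partner of MLL1, had 58.2 and 41.3 CPM in DMSO, 49.1 and 47.4 in MM401, 70.5 and 62.8 in EPZ, 85.4 and 71.7 in MI, and 55.1 and 49.8 in iBET. Both MI libraries were above the other 8, both EPZ libraries came next, and the DMSO libraries were 1.41-fold apart. Ell rose with MI (log2 fold change 0.66, SE 0.18, adjusted p = 0.0198), a call lost without MI replicate 1 (0.53, adjusted p = 0.114) and with library totals (adjusted p = 0.0774). With EPZ it had log2 fold change 0.42, SE 0.18, adjusted p = 0.0947, and it passed with the replicate block (0.43, adjusted p = 0.0233, 47.6% of all genes called) and without DMSO replicate 1 (0.69, adjusted p = 0.00754). Ell was also higher with MI than with MM401 (log2 fold change 0.70, SE 0.18, adjusted p = 0.0180) and lower with iBET than with MI (log2 fold change -0.58, SE 0.18, adjusted p = 0.0331). The first of these was lost without either MM401 library or MI replicate 1 (adjusted p 0.0878 to 0.109), and the second without either library of MM401, MI or iBET (0.0587 to 0.181). Both were lost with library totals (adjusted p = 0.0549 and adjusted p = 0.0990). Between EPZ and MM401 it had 0.47, adjusted p = 0.0761, which passed with the block (0.46, adjusted p = 0.0199).

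Ell2, a paralog of Ell, had 76.3 and 62.4 CPM in DMSO, 62.2 and 53.3 in MM401, 62.0 and 64.0 in EPZ, 53.7 and 48.5 in MI, and 52.1 and 47.1 in iBET. DMSO replicate 1 was the highest library, and both MI and both iBET libraries lay below both DMSO libraries. Ell2 fell with MI (log2 fold change -0.44, SE 0.14, adjusted p = 0.0381), a call lost in 9 omissions, all but that of DMSO replicate 2 (adjusted p 0.0580 to 0.198), and with no filter (adjusted p = 0.0555). With iBET it had log2 fold change -0.48, SE 0.14, adjusted p = 0.0586, which missed the threshold, and it passed with the replicate block (-0.48, adjusted p = 0.0202), with DESeq2 (adjusted p = 0.0192) and without DMSO replicate 2 (-0.62, adjusted p = 0.0213). Hexim1 and Ell2 were the 2 members that the block added with iBET. The block also added Ell2 between iBET and EPZ (-0.35, adjusted p = 0.0310, with 47.8% of all genes called, against -0.35, adjusted p = 0.0886 without it).

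Members of a pair can be compared within a library, where the scaling between libraries drops out. The ratio of Aff1 to Aff4 reads was 2.18 and 3.37 in DMSO, 2.27 and 2.61 in MM401, 1.70 and 1.89 in EPZ, 1.26 and 1.33 in MI, and 1.73 and 1.63 in iBET. It was lowest with MI, where every library was below every library of the other conditions, and with EPZ and iBET it lay below both DMSO and both MM401 libraries. The ratio of Ell to Ell2 reads was 0.763 and 0.662 in DMSO, 0.788 and 0.888 in MM401, 1.14 and 0.981 in EPZ, 1.59 and 1.48 in MI, and 1.06 and 1.06 in iBET. Ell2 had more reads than Ell in DMSO and MM401, and with MI the order of reads was turned. It was turned too in 1 of the 2 EPZ libraries, and by a small margin in both iBET libraries. Reads are not corrected for length, and the Ell2 exons are longer (4382 against 3072 bases, basic transcripts). Per kilobase, Ell was above Ell2 in DMSO replicate 1 (19.0 against 17.4 RPKM) and below it in DMSO replicate 2 (13.4 against 14.2). In both MM401 libraries Ell was already above (16.0 against 14.2 and 15.4 against 12.2).

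The ratio of Mllt1 to Mllt3 reads was 2.55 and 3.18 in DMSO, 3.90 and 4.36 in MM401, 2.03 and 2.06 in EPZ, 2.08 and 1.53 in MI, and 2.36 and 1.93 in iBET. Both MM401 libraries were above all others, and both EPZ, both MI and both iBET libraries were below both DMSO libraries. The inhibitor and the kinase parted most with iBET, since the ratio of Hexim1 to Cdk9 reads was 0.832 and 1.55 in DMSO, 1.25 and 1.13 in MM401, 0.872 and 0.842 in EPZ, 0.889 and 0.676 in MI, and 1.97 and 1.85 in iBET. The ratio of Ccnt1 to Ccnt2 reads varied less than the other ratios. It was 0.467 and 0.427 in DMSO, 0.532 and 0.570 in MM401, 0.416 and 0.454 in EPZ, 0.475 and 0.460 in MI, and 0.525 and 0.461 in iBET. Both MM401 libraries were above all others. These ratios are given as a description, with no test.

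**Figure D3:**
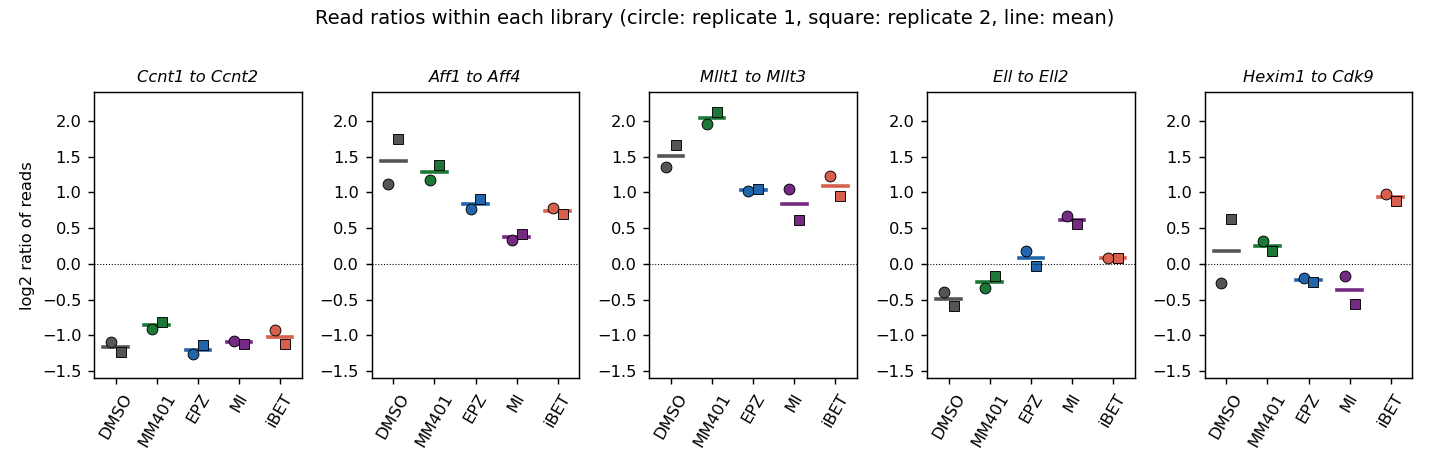
Log2 ratio of the reads of paired genes within each library, for 4 paralog pairs and for Hexim1 to Cdk9, with circles for replicate 1, squares for replicate 2 and lines for the mean. The MI libraries have the lowest Aff1 to Aff4 and the highest Ell to Ell2 ratios, and the iBET libraries the highest Hexim1 to Cdk9 ratios.

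In the wider elongation machinery most calls with EPZ and MI were downward, though most genes did not pass. How the calls over all genes split by direction is not given here. Of 40 further genes on a list of pausing, elongation and BET factors, 39 were in the table and 38 were tested. With EPZ 1 rose and 10 fell, and with MI 1 rose and 13 fell, which is 28.9% and 36.8% of the list against 38.1% and 41.4% of all genes, so calls were not more frequent in the list. Their median log2 fold change was -0.32 with EPZ and -0.38 with MI, beside -0.06 and -0.05 over all genes. Genes of the PAF1 complex (Ctr9, Leo1, Wdr61), of the CDK-activating kinase (Mnat1, Ccnh), both FACT subunits (Ssrp1, Supt16), Ccnk, Dot1l and Eaf1 fell with both inhibitors. Of the same complexes Paf1, Cdc73, Rtf1 and Cdk7 did not pass with either, and Paf1 was at 0.11 with EPZ and 0.07 with MI. With library totals the counts were 0 up and 20 down with EPZ (42.9% of all genes called) and 0 up and 19 down with MI (44.8%). With the replicate block they were 1 up and 17 down (47.6%) and 2 up and 18 down (50.6%). Without DMSO replicate 1 they were 1 up and 20 down with EPZ (51%) and 2 up and 21 down with MI (53.9%). With EPZ 5 genes fell without EPZ replicate 1 (25.5%) and 4 without replicate 2 (19.7%), while with MI 1 rose and 7 fell without DMSO replicate 2 (37.6%), 6 fell without MI replicate 1 (26.2%) and 7 without MI replicate 2 (20.7%). With MM401 no gene of the list passed, and 2 fell without DMSO replicate 1 (10.2%).

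Eaf1, an ELL-associated factor, had the largest called fall of the list with EPZ and MI. Its levels were 283 and 247 CPM in DMSO, 213 and 165 in MM401, 113 and 109 in EPZ, 106 and 111 in MI and 199 and 179 in iBET. It fell with EPZ (log2 fold change -1.26, SE 0.15, adjusted p = 0.00103) and with MI (log2 fold change -1.29, SE 0.15, adjusted p = 0.000906), and both calls held in every omission. Ctr9, the PAF1 complex scaffold, fell with EPZ (log2 fold change -0.77, SE 0.18, adjusted p = 0.0129) and MI (log2 fold change -1.04, SE 0.18, adjusted p = 0.00377), the former lost without either EPZ library (adjusted p 0.0618 to 0.0648). Mnat1, of the CDK-activating kinase, fell with MI (log2 fold change -0.89, SE 0.17, adjusted p = 0.00553). Ell3, a further ELL paralog, rose with EPZ (log2 fold change 1.66, SE 0.56, adjusted p = 0.0469) from a low level, with 23 and 6 reads in DMSO and 39 and 41 with EPZ, and its value was 2.71 without DMSO replicate 1 and 1.11 without DMSO replicate 2. This call was lost in all omissions but that of DMSO replicate 1 (adjusted p 0.0611 to 0.144), with library totals and with no filter (adjusted p = 0.0688 and adjusted p = 0.0558).

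**Figure D4:**
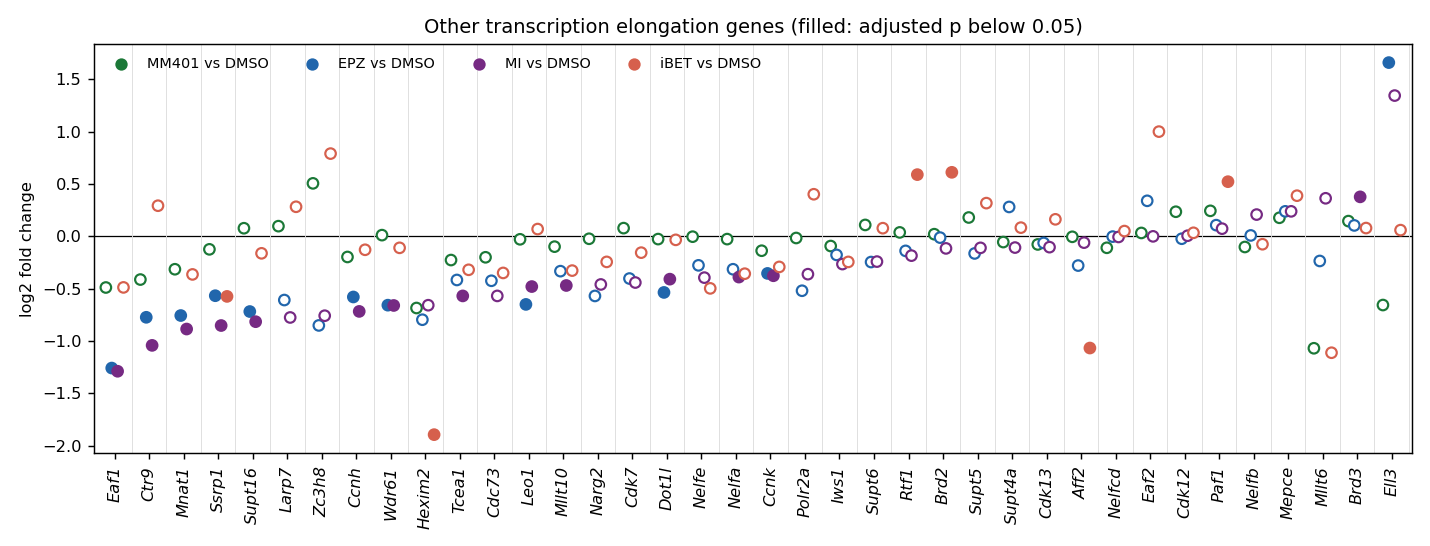
Log2 fold change against DMSO of the 38 further elongation genes tested, ordered by their value with MI, for the 4 inhibitors. Filled points have an adjusted p below 0.05, 11 with EPZ, 14 with MI, 6 with iBET and none with MM401, and most filled EPZ and MI points lie below 0.

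With iBET 3 genes of the list rose (Brd2, Rtf1 and Paf1) and 3 fell (Hexim2, Aff2 and Ssrp1), or 15.8% of the list against 13.9% of all genes. With the replicate block the counts were 5 up and 6 down (23.8% of all genes). Without DMSO replicate 1 they were 2 up and 10 down (27.9%), and without DMSO replicate 2 they were 7 up and 5 down (21.6%), so the split turned with the DMSO library. Leaving out any other library gave 0 calls (without iBET replicate 2, 1.12% of all genes) to 3 (9.55% and 9.58%, without either MI library). Hexim2, the paralog of Hexim1, went the other way from it, at 7.24 and 5.56 CPM in DMSO and 1.99 and 1.45 in iBET, the lowest 2 of the 10 libraries (log2 fold change -1.90, SE 0.35, adjusted p = 0.0147). Its levels were 4.44 and 3.53 CPM in MM401, 4.17 and 3.20 in EPZ, and 4.98 and 3.14 in MI. Both DMSO libraries were above the other 8, so a lower level of Hexim2 was not particular to iBET. It was on 38 to 186 reads per library, and the call was lost without either iBET library (adjusted p 0.0785 to 0.122). Aff2, a scaffold paralog of Aff1 and Aff4, was at 35.6 and 36.7 CPM in DMSO and 20.5 and 14.0 in iBET (log2 fold change -1.07, SE 0.19, adjusted p = 0.0132), and its call was lost without iBET replicate 2 (adjusted p = 0.0818).

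Brd2, a BET protein gene, stood at 317 and 422 CPM in DMSO, 368 and 383 in MM401, 372 and 361 in EPZ, 326 and 356 in MI and 574 and 557 in iBET. Both iBET libraries were above the other 8 (log2 fold change 0.61, SE 0.15, adjusted p = 0.0358), a call lost in 8 omissions, all but those of the DMSO libraries (adjusted p 0.0553 to 0.165). Brd3, another BET gene, and the genes of 7SK proteins did not pass with iBET, at 0.08, adjusted p = 0.638 for Brd3, 0.28, adjusted p = 0.548 for Larp7 and 0.39, adjusted p = 0.196 for Mepce. Mepce, which caps 7SK, passed with the replicate block (0.40, adjusted p = 0.0346) and without DMSO replicate 1 (0.63, adjusted p = 0.0429).

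Other markers of the BET response gave a mixed picture beside Hexim1. Serpini1 rose (log2 fold change 2.50, SE 0.65, adjusted p = 0.0420) on few reads, 4 and 1 in DMSO and 18 and 12 with iBET. Its value was 3.56 without DMSO replicate 1 and 1.96 without DMSO replicate 2. It had 9 and 13 reads with EPZ and 6 and 11 with MI, and EPZ replicate 2 (0.612 CPM) was above iBET replicate 2 (0.459 CPM). It lost its call in all omissions but that of DMSO replicate 1 (adjusted p 0.0726 to 0.215), with DESeq2 and with no filter (adjusted p = 0.0877 and adjusted p = 0.0627). Hist2h2be, a histone gene with close paralogs whose reads the counting may have split, was at 12.8 and 5.22 CPM in DMSO and 18.8 and 14.6 in iBET (0.89, adjusted p = 0.161), and both iBET libraries were above the other 8. Ccr2 (-0.38, adjusted p = 0.102) and Cd180 (-1.35, adjusted p = 0.132) had their 2 lowest libraries with iBET. With the replicate block Cd180 was at -1.28, adjusted p = 0.0499. Hist2h2be and Cd180 passed without DMSO replicate 1 (adjusted p = 0.00585 and 0.0459). Myc did not pass with iBET (-0.59, adjusted p = 0.179) except with the replicate block (-0.60, adjusted p = 0.0327). It was at 456 and 402 CPM in DMSO, 361 and 294 in MM401, and 313 and 257 in iBET. With EPZ (254 and 145 CPM) and MI (182 and 135 CPM) it was lower than with iBET. Both DMSO libraries were above the other 8, so a lower level of Myc was not particular to iBET.

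The genes whose log2 levels followed Hexim1 most closely over the 10 libraries, among 9940 genes that averaged 5 CPM or more, were Gas2l1 (Pearson's r = 0.971), Thoc6 (0.957), Brd2 (0.953), Rdx (0.942) and Uros (0.941). Gas2l1, a cytoskeletal linker gene, was at 44.3 and 45.4 CPM with iBET and 20.7 and 30.9 CPM in DMSO, with the other 6 libraries between the DMSO values. The r values describe a shape set mainly by high iBET libraries and a low DMSO replicate 1, and they carry no test. Over the 9 libraries without DMSO replicate 2 the closest 5 were Dnajb1 (0.987), Gas2l1 (0.980), Tor1b (0.971), Brd1 (0.960) and Brd2 (0.957), so Gas2l1 and Brd2 were in both lists.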

How the data were processed

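The 10 RNA-seq libraries of MAF9 cells, 2 for each of DMSO, MM401, EPZ, MI and iBET, were taken as raw read counts per gene that the authors deposited in 1 table. The submitters' processing notes name TopHat2, Subread and DESeq and the genome build mm9. Versions, gene annotation, strand setting and the treatment of reads with several hits were not given in the sources used here. Groups and replicate numbers came from the sample labels, and all 10 columns were matched.

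Counts were filtered (filterByExpr), scaled by TMM and fitted (glmQLFit, glmQLFTest) with edgeR 4.0.16 under R 4.3.3, with all 10 libraries in 1 fit and 1 coefficient per condition. P-values were adjusted by Benjamini-Hochberg over the 12971 genes kept, at a threshold of 0.05. Library totals of 20394762 to 29473127 reads limit precision through counting error, which is small for the members, and with 2 libraries a group the spread is the larger limit. The 2-fold rule used CPM by library totals, adding 0.1 CPM to both means and asking for 1 CPM in one of them, and read ratios had 0.5 reads added. The fit was tested on simulated data first. Alternatives were library totals, DESeq2 size factors, the Wald test of DESeq2 1.42.0, no filter beyond 1 read, the replicate number as a block, and each library left out in turn. The main fit had no replicate block, and the block is given beside a result where it changes a call. Deviations of same-numbered libraries from their group means correlated at 0.303 to 0.704 over 12971 genes in all 10 pairs of conditions. Such correlations do not establish a pairing. DMSO replicate 2 differed in sex from every other library numbered 2, so for it a shared number was not a shared animal. The labels do not say what a number shares.

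Members and gene lists were chosen with earlier results of these data known. Genes outside the members are named by a rule: the 3 largest called changes of the further elongation genes with each inhibitor, a fixed set of BET and 7SK genes, the BET response markers, and the 5 genes most like Hexim1. Other genes of that list are named only as members of a count, and 1 gene of the list and 1 cell type marker are not reported here. Promoters and exon lengths came from RefSeq and GENCODE M21 (GRCm38.p6), while the counts were made on mm9.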

Additional observations from a re-analysis of the deposited data

How the results depend on the processing

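Depth limits little here, as each member had at least 460 reads in each library. The limit is the 2 libraries a group and the distance between the DMSO libraries, so values against DMSO for Hexim1, Aff1 and Ell depend most on which of them is kept. Reads on Mllt3 cannot be split between gene and fusion. Levels are of RNA, and no protein or binding was measured. What the alternatives below changed is given as values, and the cause was not tested.

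The number of members called against DMSO was 1 with EPZ under total-count scaling (42.9% of all genes called) and under no filter. It was 2 with iBET under both DESeq2 (20.6% of all genes) and the replicate block (23.8%). Between EPZ and MM401 it was 4 under DESeq2 and the block (43.4% of all genes under the block) and 1 under no filter. It was 2 between MI and MM401 under total-count scaling (39.3% of all genes). Between iBET and MM401 it was 0 under total-count scaling (11.4% of all genes) and no filter and 2 under DESeq2. Between iBET and EPZ it was 3 under total-count scaling (43.8%) and 2 under DESeq2 and the block (47.8% under the block). Of the further elongation genes, 20 were called with EPZ under total-count scaling (42.9% of all genes) and 18 under the block (47.6%). With iBET these were 10 under DESeq2 (20.6% of all genes), 3 under no filter and 11 under the block (23.8%). Beside the calls given in the report, the replicate block changed no other call of a member. In the omissions of a library that follow, the share of all genes called against DMSO moved too, so the ranges are no result about these genes alone.

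Leaving out each library in turn gave 0 to 1 members called against DMSO with MM401, 0 to 5 with EPZ, 2 to 6 with MI and 0 to 2 with iBET. The ranges were 1 to 4 for EPZ against MM401, 2 to 5 for MI against MM401, 0 to 4 for iBET against MM401, 0 to 3 for iBET against EPZ and 0 to 4 for iBET against MI. Of the further elongation genes 0 to 2 were called with MM401, 4 to 21 with EPZ, 6 to 23 with MI and 0 to 12 with iBET. From 0 to 1 members passed 2-fold with iBET.

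No value of a named gene that was called in the main fit changed sign in the settings tried. Hexim1 with EPZ and with MI, not called against DMSO in that fit, changed sign with the DMSO library kept. Between inhibitors, the omissions also took values that had not passed across 0, which were -0.11 to 0.17 for Ccnt2 in EPZ against MM401, -0.11 to 0.15 for Ccnt1 in iBET against MM401, -0.11 to 0.048 for Cdk9 in EPZ against MI, -0.13 to 0.14 for Ccnt2 in EPZ against MI, -0.13 to 0.078 for Mllt3 in EPZ against MI, and -0.12 to 0.032 for Ell2 in iBET against MI. Outside the omissions, the sign turned for Aff4 in MM401 against DMSO to -0.0054 under total-count scaling, Mllt3 in EPZ against DMSO to -0.078 under total-count scaling, Mllt3 in MI against DMSO to -0.035 under total-count scaling, Ccnt2 in iBET against DMSO to -0.018 under total-count scaling, Ccnt2 in iBET against DMSO to -0.015 under DESeq2 size factors, and Ccnt2 in iBET against DMSO to -0.0096 under the DESeq2 test. In MM401 against DMSO the range over the omissions was -0.34 to 0.63 for Hexim1, -0.51 to 0.23 for Aff1, -0.041 to 0.064 for Aff4 and -0.29 to 0.23 for Ell. In EPZ against DMSO the range over the omissions was -0.49 to 0.52 for Hexim1, -0.69 to 0.094 for Aff1, -0.0079 to 0.20 for Mllt3 and -0.25 to 0.019 for Ell2. In MI against DMSO the range over the omissions was -0.60 to 0.43 for Hexim1. In iBET against DMSO the range over the omissions was -0.082 to 0.11 for Ccnt2, -0.19 to 0.0077 for Mllt1 and -0.15 to 0.35 for Ell. In EPZ against MI the range over the omissions was -0.0057 to 0.23 for Hexim1. Total-count scaling moved the median of all genes by -0.17 with EPZ and -0.15 with MI, and by less, in either direction, in the other comparisons.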
